A study of Mus musculus with 6 samples.

Results

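Oxidative phosphorylation is carried out in the inner mitochondrial membrane by 5 protein complexes. Complex I oxidises NADH and complex II oxidises succinate, complex III passes the electrons to cytochrome c, complex IV hands them to oxygen, and complex V (ATP synthase) uses the resulting proton gradient to make ATP. Most subunits are encoded in the nucleus, and several complex IV subunits exist as a common form and as a paralogue restricted to muscle, lung or testis. The genes were taken by symbol: nuclear protein-coding genes of the mouse build GRCm38 whose symbol begins with Nduf, Uqcr, Cox4 to Cox8 or Atp5, or is Sdha, Sdhb, Sdhc or Sdhd. This gave 96 of 21887 protein-coding genes: 77 common subunits (37 of complex I, 4 of complex II, 8 of complex III, 11 of complex IV and 17 of complex V), 9 assembly factors, 8 restricted paralogues and 2 copies of Ndufb4. Ndufa4 and Ndufa4l2 were placed with complex IV.

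The data come from P19 cells, a mouse embryonal carcinoma line kept undifferentiated in proliferation medium with fetal bovine serum; the labels name no genetic change and no treatment. Native chromatin, prepared without crosslinking, was precipitated with 1 antibody to crotonylated lysine 9 of histone H3 (H3K9cr) and 1 to acetylated lysine 9 (H3K9ac), each in 2 biological replicates, so that a property of an antibody and one of its mark cannot be told apart. Both marks are acyl groups on the same residue and are known from promoters of active genes. Each of the 4 libraries had its own peak list, and the 2 input libraries were not analysed here.

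The lists held 26096 to 28360 peaks, and read depth is not given in the sources used here. All 7 embryonal carcinoma markers, among them Pou5f1 and Sox2, had peaks in all 4 libraries, as did 5 of 5 neuronal, 2 of 6 muscle and 2 of 5 fibroblast markers. Alb and Hbb-bt had none. Sites weaker than the authors' threshold are not listed, and a gene without a peak may still carry the mark at a lower level.

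Promoter sequences for the genes were taken from RefSeq (GRCm38.p6), as windows from 250 bases before to 50 bases after a start site; 78 of the 96 genes matched, with 83 windows. The 200 bases upstream of the start are shown for some of the genes: the gene with the strongest complex I peak and its copy, the common and the muscle form of the same complex IV subunit, and 3 other common subunits with a match to the motif of nuclear respiratory factor 1 (NRF1), a regulator of respiratory genes. Each is written 5′ to 3′ on the strand of the gene, and capitals mark matches, on either strand, to the NRF1 motif, which is GCGC, 1 base of any kind and TGCGC.
Ndufb4, chr16:37654369-37654568, minus strand: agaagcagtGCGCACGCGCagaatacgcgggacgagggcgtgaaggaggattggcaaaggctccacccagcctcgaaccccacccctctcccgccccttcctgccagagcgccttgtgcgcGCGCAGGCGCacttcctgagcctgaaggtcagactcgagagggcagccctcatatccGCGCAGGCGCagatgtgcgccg
Ndufb4b, chr19:25032908-25033107, plus strand: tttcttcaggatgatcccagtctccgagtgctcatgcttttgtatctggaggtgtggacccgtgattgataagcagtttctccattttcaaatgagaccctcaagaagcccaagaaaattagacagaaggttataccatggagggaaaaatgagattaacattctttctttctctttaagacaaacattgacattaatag
Cox8a, chr19:7217617-7217816, minus strand: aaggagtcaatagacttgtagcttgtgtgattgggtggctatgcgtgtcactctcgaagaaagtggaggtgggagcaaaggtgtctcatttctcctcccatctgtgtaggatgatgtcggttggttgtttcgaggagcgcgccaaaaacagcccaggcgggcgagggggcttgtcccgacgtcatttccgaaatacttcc
Cox8b, chr7:140900447-140900646, minus strand: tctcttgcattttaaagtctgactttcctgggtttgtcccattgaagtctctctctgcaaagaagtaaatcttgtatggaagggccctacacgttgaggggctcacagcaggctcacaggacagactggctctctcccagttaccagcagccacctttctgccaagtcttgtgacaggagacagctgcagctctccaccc
Cox6a1, chr5:115348959-115349158, minus strand: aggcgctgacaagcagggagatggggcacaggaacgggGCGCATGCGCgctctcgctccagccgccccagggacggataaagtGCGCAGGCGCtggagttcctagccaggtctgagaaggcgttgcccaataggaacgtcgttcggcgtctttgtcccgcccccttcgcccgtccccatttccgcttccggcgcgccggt
Atp5g2, chr15:102671048-102671247, minus strand: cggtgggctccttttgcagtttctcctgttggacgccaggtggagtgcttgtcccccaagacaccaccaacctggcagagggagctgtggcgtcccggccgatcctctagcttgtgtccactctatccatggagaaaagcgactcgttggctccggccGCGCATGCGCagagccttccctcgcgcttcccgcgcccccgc
Ndufs5, chr4:123718187-123718386, minus strand: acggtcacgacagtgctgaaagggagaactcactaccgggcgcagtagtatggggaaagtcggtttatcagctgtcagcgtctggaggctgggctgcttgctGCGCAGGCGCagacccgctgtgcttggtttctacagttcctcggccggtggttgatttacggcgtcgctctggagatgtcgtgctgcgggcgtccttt
In these stretches Ndufb4 holds 20 CpG dinucleotides and 3 NRF1 matches, whereas its copy Ndufb4b holds 2 CpG and no match. Cox8a holds 11 CpG and Cox8b holds 1, and neither has an NRF1 match. A match is a description of the letters and not a site.

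Nearly all oxidative phosphorylation genes carried both marks in every library. A peak overlapped the gene or the 2.5 kb on either side in all 4 libraries at 90 of the 96 genes (93.8%), compared with 67.9% of all protein-coding genes. All 77 common subunits and all 9 assembly factors were among them, against 4 of the 8 restricted paralogues and 0 of the 2 Ndufb4 copies. No member had a peak in both libraries of a mark and in neither of the other; over all genes this held for 0.21% with H3K9cr alone and 0.032% with H3K9ac alone. In this listing the common subunits did not separate by complex, since every complex was complete.

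The 6 genes without a peak in all libraries were Cox6a2, Cox7b2, Cox8b, Cox8c, Ndufb4b and Ndufb4c. Cox7b2 and Cox8c, testis forms of complex IV subunits, and both Ndufb4 copies had no peak in any library; Ndufb4b lies within the record of Dock8. Cox6a2, the heart and skeletal muscle form of subunit 6a, had short peaks of 278 bp and 325 bp with H3K9cr and 391 bp with H3K9ac replicate 2, and none in H3K9ac replicate 1. Cox8b, the muscle form of subunit 8, had a single peak, in H3K9cr replicate 2, with its summit 2831 bp outside the gene.

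Other genes of the pathway showed a similar listing. Of 37 electron carriers and assembly factors outside the symbol rule, 36 had a peak in all 4 libraries, and the remaining gene, the testis cytochrome c gene Cyct, had none. All 12 regulators of the respiratory chain, including Nrf1, Gabpa, Yy1, Esrra and Tfam, had peaks in all 4. The somatic cytochrome c gene Cycs had a fold enrichment of 46.7 and 69.7 in the H3K9cr libraries and 40.8 and 89.4 in the H3K9ac libraries, in order of replicate. Of the regulators, Ppargc1a, a coactivator of mitochondrial genes, and Polrmt, the mitochondrial RNA polymerase, had the lowest values: 21.7 and 20.2 with H3K9cr and 20.5 and 28.1 with H3K9ac at Ppargc1a, and 24.8 and 30.3 with H3K9cr and 9.38 and 29.8 with H3K9ac at Polrmt.

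Fold enrichment is the authors' value for a peak, the coverage at its summit over the local background, and it was ranked only within its own list. The strongest peak at each gene was converted to a percentile of all peaks in that library. That peak can lie in the 2.5 kb flank, toward a neighbour. Over the 90 genes the median percentile was 89.7 to 92.5 in the 4 libraries, compared with 75.2 to 77.3 over the 14866 protein-coding genes listed in all 4. By complex, the median over common subunits ranged from 87.1 to 89.0 for complex I, 87.3 to 91.1 for complex II, 76.2 to 94.1 for complex III, 92.8 to 96.7 for complex IV and 94.0 to 97.1 for complex V. The range of complex III was the widest over libraries. The complex V median in H3K9ac replicate 1, 94.0, was the value of an Atp5h peak toward Mrpl58. In that library the peak over Atp5h itself stood at 85.6. With summit coverage (pileup) in place of fold enrichment, the medians were 86.9 to 89.7 for complex I, 87.7 to 90.9 for II, 90.4 to 93.2 for III, 94.8 to 96.1 for IV and 96.5 to 97.3 for V, and the order V, IV, III, II, I was the same in each library. The restricted paralogues that were listed (n = 4) had medians of 50.4 to 60.7 by fold enrichment, and the 9 assembly factors 83.1 to 90.2. These are descriptions of ranks; no test was made between complexes.

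**Figure D1:**
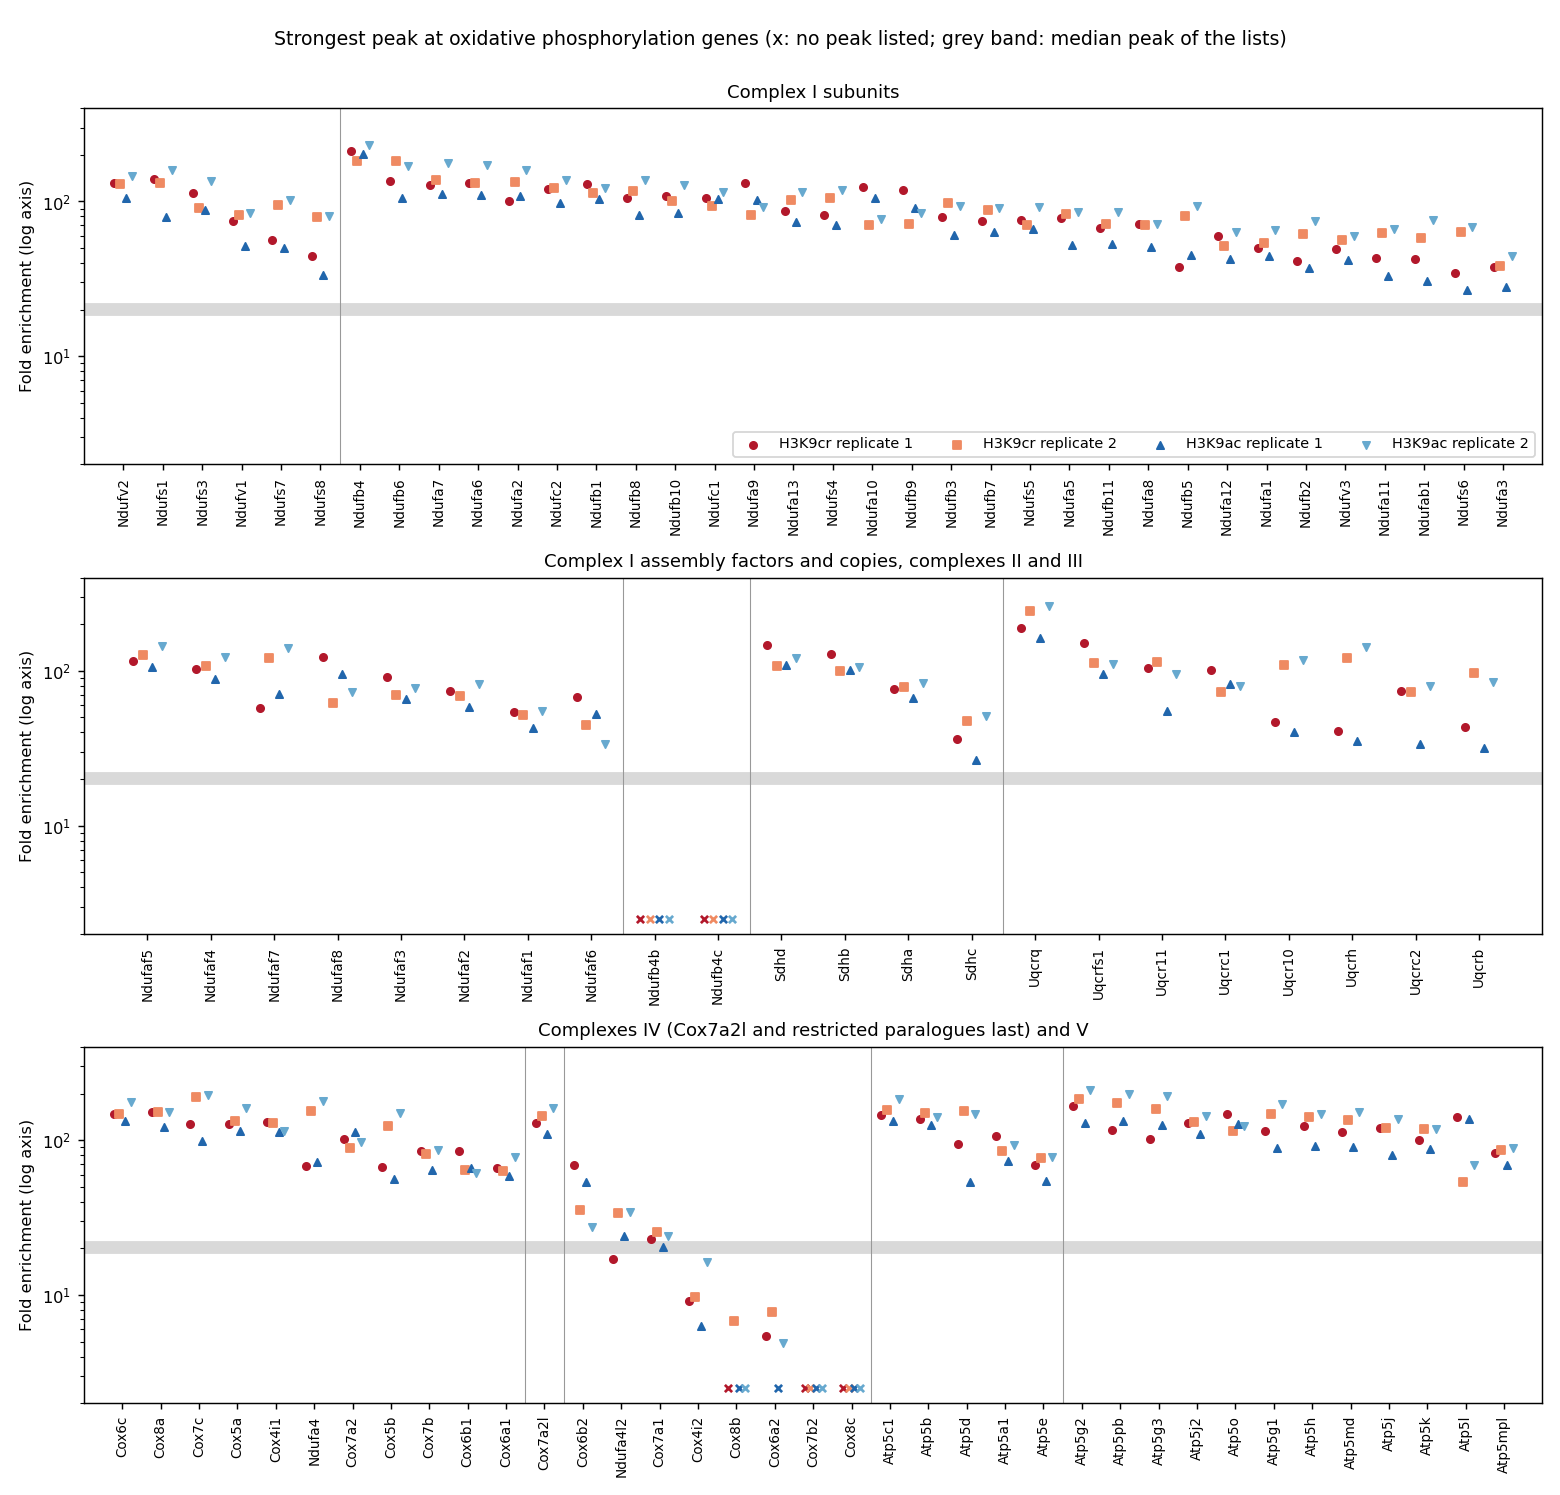
Fold enrichment (log axis, authors' values, no unit) of the strongest peak at the genes reported, grouped by complex and role, with 1 symbol per library; a cross marks a gene with no peak in that library, and the grey band spans the median peak of the 4 lists. All common subunits plotted lie above the band in every library, whereas Cox4i2, Cox6a2 and Cox8b lie below it and Cox7b2, Cox8c, Ndufb4b and Ndufb4c carry crosses only.

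In complex I, the core subunits that carry flavin and iron-sulfur centres spread over a fold enrichment of 33.7 to 160 across genes and libraries. Ndufv2, of the NADH-oxidising module, had 132 and 130 with H3K9cr and 106 and 145 with H3K9ac. Ndufs1, the largest subunit of that module, had 139 and 133 against 79.1 and 160, or percentiles of 90.9 in H3K9ac replicate 1 and 96.9 to 97.8 in the other libraries. Ndufv1, which binds NADH, had 74.4, 81.8, 51.8 and 84.4, in the order H3K9cr replicates 1 and 2, then H3K9ac replicates 1 and 2. Ndufs3, of the module that reduces ubiquinone, ranged from 88.7 to 135. Ndufs7 and Ndufs8, 2 further iron-sulfur subunits, ranged lower, from 50.4 to 103 and from 33.7 to 80.5, and both genes stood at higher percentiles in replicate 2 than in replicate 1 of each mark.

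Among the 30 accessory subunits the highest mean percentile was that of Ndufb4, with 213 and 182 for H3K9cr and 203 and 231 for H3K9ac. It stood above the 99th percentile in every library. The lowest was Ndufa3, with 37.7, 38.2, 28.2 and 44.2, or percentiles of 61.0 to 67.2.  The 8 complex I assembly factors, which help build the complex and are not part of it, ranged from 33.8 to 145.

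Complex II, the only one built from nuclear-encoded subunits alone, was marked at each of its 4 genes. Sdha, the flavoprotein that oxidises succinate, had 75.9 and 78.2 with H3K9cr and 66.6 and 84.0 with H3K9ac. Sdhb, the iron-sulfur subunit, had 129 and 99.6 against 101 and 106. The membrane anchors differed: Sdhd had 147, 108, 110 and 120, and Sdhc 36.2, 47.2, 26.7 and 51.1, with no overlap between the anchors. By pileup Sdhc stood higher in its lists, at a mean percentile of 84.5 against 66.9 by fold enrichment.

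In complex III, Uqcrq had the highest mean percentile, 189 and 243 for H3K9cr and 162 and 261 for H3K9ac; the summit also lay 227 to 241 bp from an end of Gdf9. Uqcrfs1, the Rieske iron-sulfur protein, had 152 and 112 against 95.0 and 112. The core proteins Uqcrc1 and Uqcrc2 had 73.3 to 101 and 33.5 to 79.3. Uqcrb was the lowest by mean percentile, and its replicates lay far apart within each mark: 43.5 and 96.6 for H3K9cr, 31.8 and 84.4 for H3K9ac.

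In complex V, the catalytic F1 gene Atp5b had 138 and 150 with H3K9cr and 126 and 141 with H3K9ac, and Atp5a1, its alpha partner, 107, 85.0, 74.1 and 93.2. The rotor ring is made of subunit c, which Atp5g1, Atp5g2 and Atp5g3 encode as the same mature protein with different import sequences. All 3 genes stood above the 92nd percentile in every library: Atp5g1 had 115, 148, 88.9 and 171, Atp5g2 166, 184, 129 and 210, and Atp5g3 102, 158, 126 and 192. Atp5g2 had the highest mean percentile of the complex. Atp5e, the small epsilon subunit of F1, had the lowest, with 69.5, 76.6, 54.2 and 77.5.

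Complex IV held the common and restricted forms of the same subunits side by side. Cox6c had the highest mean percentile of the common subunits, with 148 in both H3K9cr libraries and 134 and 176 with H3K9ac, and Cox6a1 the lowest, with 65.9, 63.8, 59.0 and 77.8. In all 7 cases the common form had a peak in all 4 libraries. Cox4i1, the common form of subunit 4, had 131, 129, 113 and 115, and Cox4i2, the lung form, had 9.22 and 9.66 with H3K9cr and 6.28 and 16.4 with H3K9ac. Cox4i1 was the higher of the 2 in every library, at percentiles of 92.2 to 97.4 against 19.2 to 43.0. Cox6a1 was likewise above Cox6a2, which had 5.45 and 7.77 with H3K9cr and 4.91 in the H3K9ac library that listed it. Cox7a2 had 102, 89.2, 112 and 98.1, against 23.0, 25.4, 20.5 and 24.2 at the muscle form Cox7a1. Cox8a had 152 and 152 with H3K9cr and 122 and 151 with H3K9ac, against the single value of 6.76 near Cox8b. Cox7b had 64.3 to 86.0, and Cox7b2 no peak.

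Cox6b2 and Ndufa4l2 came closer to their counterparts. Cox6b2, the testis form of subunit 6b, had 69.5 and 35.3 with H3K9cr and 53.5 and 27.6 with H3K9ac, against 85.8, 64.6, 66.7 and 61.3 at Cox6b1. Within each library Cox6b1 was the higher, at percentiles of 75.5 to 88.7 against 55.2 to 82.8, ranges that overlap. The summit at Cox6b2 lay 163 to 291 bp from its own end and 295 to 423 bp from an end of Fam71e2, and which of the 2 genes it marks cannot be told apart. Ndufa4l2, a paralogue known to be induced by low oxygen, had 17.2, 34.0, 24.2 and 34.3, below the 68.6, 154, 72.7 and 179 of Ndufa4. Its summit lay inside the gene, 2726 to 2747 bp from the nearer end.

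**Figure D2:**
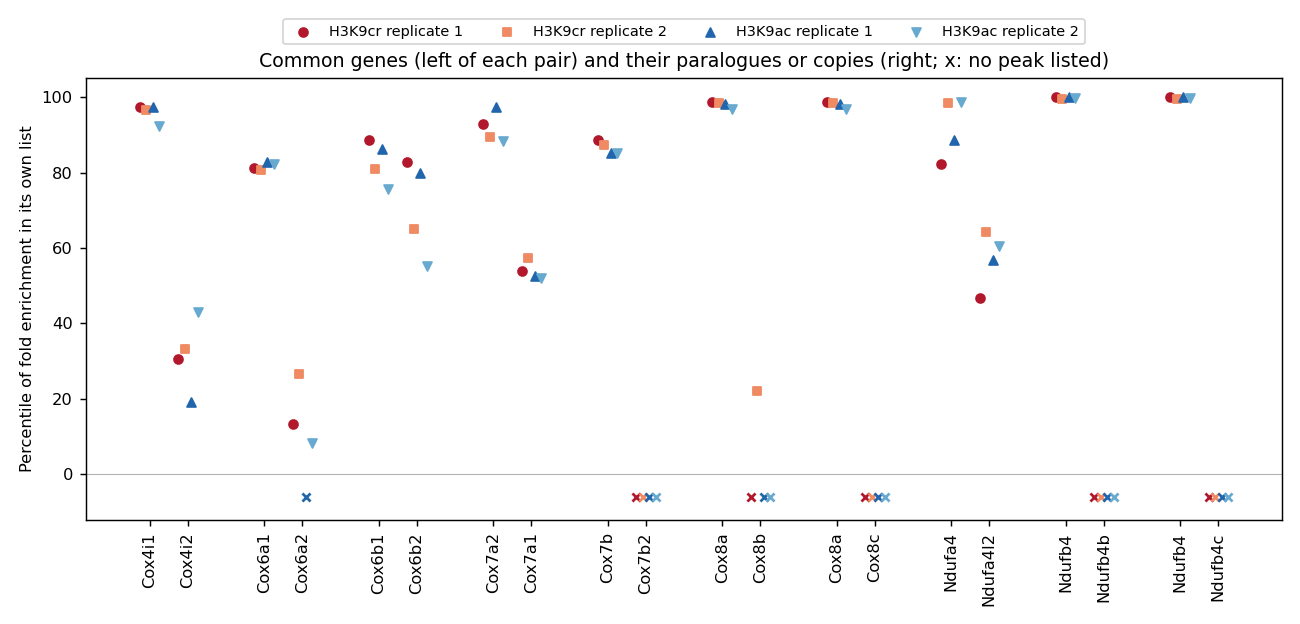
Percentile of fold enrichment of the strongest peak among all peaks of the same library, for each common gene and its restricted paralogue or copy, with 1 symbol per library and crosses for genes with no peak. Each common form lies above its paralogue in the same library, with Cox6b1 and Cox6b2 closest, and Cox7b2, Cox8c and both Ndufb4 copies have crosses only.

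Length covered by peaks is in base pairs in every list and was the one quantity tested between marks. It was taken within 2.5 kb of the gene end with more coverage, minus the library median, at 14110 genes. Of the members, 88 could be tested. Cox5a and Cox7a2 could not, as their peaks lie inside the gene record more than 2.5 kb from its ends. Their RefSeq starts, at 57521232 and 79759853 on chromosome 9, lie there too and were under a peak in all 4 libraries. Median covered length over the 88 was 2138 and 2236.5 bp in the H3K9cr libraries and 2018.5 and 2120 bp in the H3K9ac libraries.

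No gene differed between the marks after adjustment. The limma fit called 0 of 14110 genes (0% in either direction), with a smallest adjusted p of 0.683 over all genes and 0.831 over the members. At an unadjusted p under 0.05, 3.33% of all genes were wider with H3K9cr and 1.64% with H3K9ac. Of the 88 members 3 were wider with H3K9cr and 0 with H3K9ac. In both directions together this was 3.41% of the members, against 4.98% of all genes. These unadjusted counts moved when a library was left out: without H3K9ac replicate 2 they rose from 702 to 1268 of all genes, and without H3K9cr replicate 1 they fell from 3 to 1 of the members. The median difference, H3K9cr minus H3K9ac after centring, was 12.75 bp over the members and -20.25 bp over all genes. After centring, both H3K9cr libraries were above both H3K9ac libraries at 14 of the 88 (15.9%, against 13.3% of all genes). The reverse held after centring at 10 (11.4%, against 22.8% of all genes). Covered lengths given below for single genes are before centring, and the differences are centred.

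The 3 members below an unadjusted p of 0.05 were Atp5pb, Ndufa4l2 and Cox6a1. Atp5pb, subunit b of the ATP synthase stalk, was covered over 3211 and 3339 bp with H3K9cr and 2775 and 2747 bp with H3K9ac, a centred difference of 418 bp (SE 92.5, limma adjusted p = 0.831). Its peak also spans the start of Wdr77. Ndufa4l2 was covered over 3691 and 3461 against 3124 and 3045 bp, a difference of 396 bp (SE 127, limma adjusted p = 0.922). Cox6a1 was covered over 2344 and 2464 against 2008 and 2094 bp, a difference of 257 bp (SE 82.4, limma adjusted p = 0.922). At each of these 3 genes the libraries of the marks did not overlap. The genes were taken by their unadjusted p, so that this is no separate result. None passed the adjusted threshold.

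Atp5h, subunit d of the stalk, had the third largest difference, 365 bp (SE 217), but its H3K9ac libraries were 2046 and 2744 bp and overlapped the 2700 and 3011 bp of H3K9cr. In the other direction the largest differences were at Ndufb11 (-329 bp, SE 225) and Sdhd (-186 bp, SE 94.8). Sdhd was covered over 2627 and 2741 bp with H3K9cr and 2800 and 2748 bp with H3K9ac, so that its H3K9ac libraries lay above both H3K9cr libraries. Ndufb11 was covered over 2969 and 2640 bp with H3K9cr and 3274 and 2802 bp with H3K9ac, which overlap. By complex the median difference was 13.25 bp for I, -58 bp for II, 21.5 bp for III, 16.25 bp for IV and 11.75 bp for V.

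At most start sites under a peak, the summit lay just inside the gene. Among the 73 members with a single RefSeq promoter entry, the start site lay in a peak in all 4 libraries at 66 (90.4%), compared with 51.5% of the 14731 such genes. At these 66 the summit lay a median of 314.5 to 323 bp downstream of the start, and the peak reached a median of 844 to 926.5 bp upstream and 1123 to 1206.5 bp downstream. Over all 7590 genes so covered, the median summit was 275.5 to 293 bp downstream. The summit was downstream of the start at 55 to 57 of the 66 members, depending on the library. This was 83.3% to 86.4%, against 77.0% to 78.3% of the 7590 genes, and at the remaining members the summit lay upstream. At 1 kb downstream, 75.8% to 81.8% of the members were in a peak, against 62.9% to 70.1% of all genes. At 2 kb downstream it was 0% of the members in every library, against 10.1% to 12.7% of all genes.

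**Figure D3:**
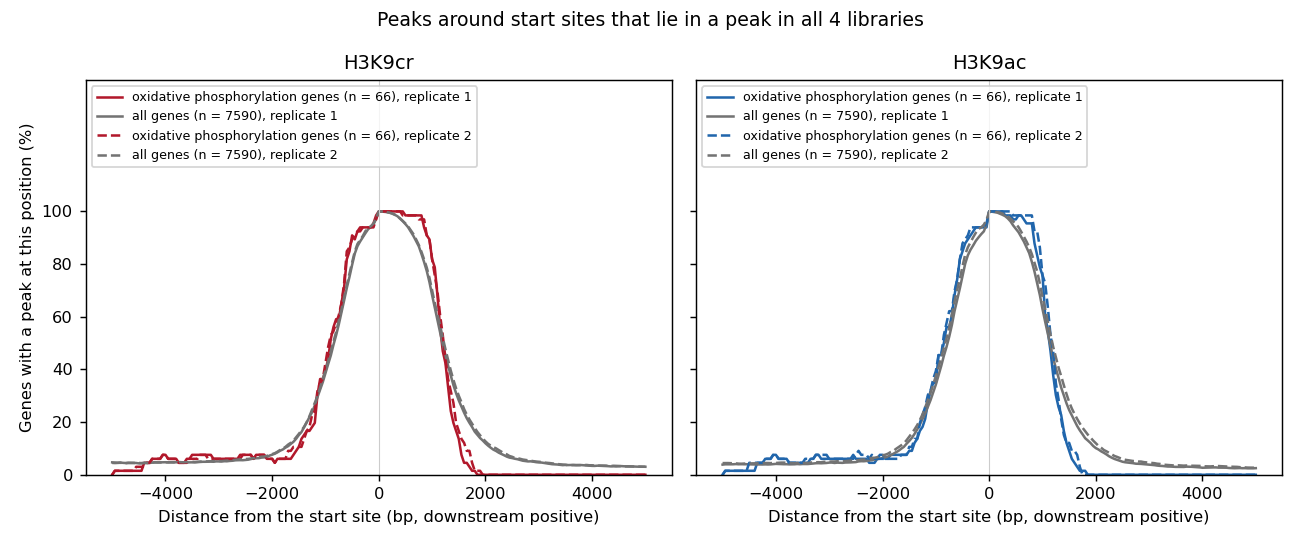
Share of genes (%) with a peak at each distance (bp) from the start site, for 66 oxidative phosphorylation genes and all 7590 genes whose start lies in a peak in all 4 libraries, by mark and replicate. The lines of the members stay above those of all genes 1 kb downstream and reach 0% before 2 kb, where 10.1% to 12.7% of all genes are still in a peak.

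Of the 7 start sites outside a peak in at least 1 library, those of Cox7b2, Cox8b and Ndufb4b belong to genes described above. At Uqcrc1, Ndufa3 and Ndufa8 the peak began close to the start. Uqcrc1 starts at 108936648 on chromosome 9, and its peaks began at 108936666, 108936701, 108936700 and 108936700, downstream of it in each library. The starts of Ndufa3 and Ndufa8 were covered in 3 libraries and missed in H3K9ac replicate 1. Ndufb10 was covered in 1 library.

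Start sites of many members lie close to that of a neighbour transcribed away from them. Of the 78 members with a RefSeq start, 23 (29.5%) had a protein-coding neighbour that starts on the other strand within 1 kb upstream, compared with 8.66% of all genes. Both counts include pairs whose starts overlap by a short stretch, such as Ndufa1 with Rnf113a1 (-16 bp). At 22 of these 23, a single peak covered both starts in all 4 libraries, as it did at 78.7% of all such pairs (1193 of 1515); the exception was Ndufa8 with Morn5. Atp5j lies 148 bp from Gabpa, which encodes a subunit of an ETS factor that regulates respiratory genes. Ndufb5 lies 308 bp from Mrpl47 and Ndufa7 10 bp from Rps28, both ribosomal protein genes, and Sdhd lies 52 bp from Timm8b, of the mitochondrial import machinery. Such a peak gives 1 value for both genes, and it cannot be told apart which gene it marks.

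The 2.5 kb flank also took in stronger peaks of neighbours. The summit of the strongest peak was nearer to an end of another gene than to either end of the member at 20 or 21 of the members with a peak in each library. This count goes by gene ends, so that a summit inside the member can be among them. At Ndufb10 the strongest peak lay toward Rps2, with 108 and 100 for H3K9cr and 83.7 and 128 for H3K9ac, whereas the peak over Ndufb10 itself had 60.4, 84.5, 72.5 and 86.7. At Atp5h, next to Mrpl58, the corresponding values were 123, 141, 92.2 and 147 against 72.1, 81.2, 65.3 and 95.1. Ndufb6, Ndufs6, Uqcr11 and Atp5d had such a neighbour in at least 1 library. The peak over the gene was present in each of these cases.

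The promoters of the members were rich in CpG compared with all promoters. The median ratio of observed to expected CpG was 0.829 over the 83 windows, 0.567 over all 21263 windows and 0.725 over the windows of genes with a peak in all 4 libraries. In the same order, the median number of CpG in a window was 20, 13 and 19, and the median GC content was 58.3%, 56.3% and 60.7%. Against marked genes the members thus differed little in CpG number and were lower in GC content. The 5 windows of restricted paralogues and copies had a median of 0.399. Cox4i2, Cox6a2, Cox8c, Ndufa4l2 and Ndufb4c had no window. Among genes with 1 window, 59 of 73 members (80.8%) were at 0.6 or above, against 47.2% of all. Cox8b had the lowest ratio of the 78 members with a window, 0.115, followed by Cox7a1 at 0.333. Cox7b, a common subunit marked in all 4 libraries, followed at 0.368.

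Matches to the NRF1 motif were found in 20 member windows (24.1%), of 19 genes, against 6.38% of all windows and 8.71% of the windows of genes listed in all 4 libraries. Sdha and Ndufb4 had 3 matches each. Matches to AANATGGCG, the motif of YY1, were found in 11 windows (13.3%, against 3.12% and 4.19%), among them Atp5b and Ndufs7. The ETS motif CCGGAAGT was found in 5 (6.02%, against 5.15% and 6.85%), and GGGGCGGGG, bound by SP factors, in 12 (14.5%, against 15.4% and 20.7%). TCAAGGTCA, the motif of ESRRA, was found in 2 windows, of Atp5g3 and Sdhd (2.41%, against 0.334% and 0.252%), and TATAAA in 9 (10.8%, against 12.6% and 7.37%). Both strands were searched, and some matches of different motifs can overlap. Of the 5 windows of restricted paralogues and copies, 0 held an NRF1 or YY1 match. No match says only that these letters are not in the window.

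At some genes the fold enrichment of replicates diverged together with the local background. The local background implied by a peak is (pileup + 1) / fold enrichment - 1. At the members it was 1.58 to 6.05 in H3K9ac replicate 1 and between 1.91 and 7.0 in the other libraries. Many members lay within 0.01 of the lowest value in their library: 33 of 91 and 55 of 92 with H3K9cr, and 33 of 90 and 41 of 91 with H3K9ac. Values for other genes are not given here. The implied background is computed from the fold enrichment, so that where the pileup changes little the 2 must move in opposite directions. At Uqcrh the fold enrichment was 41.0 and 121 with H3K9cr and 35.3 and 142 with H3K9ac, and the implied background was 7.0 and 2.04, then 6.05 and 1.99. At Atp5l it was the other way round, with fold enrichments of 141 and 54.0, then 136 and 69.2, and a background of 2.0 and 7.0, then 1.73 and 7.0. At both genes H3K9cr and H3K9ac thus differed between replicates in the same direction. The pileup at Atp5l, 421 and 431 with H3K9cr, did not follow this pattern.

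Over the 90 members the log2 ratio of replicate 2 to replicate 1 in fold enrichment had a Pearson r of 0.856 between the marks (Spearman's rho 0.794), compared with a Pearson r of 0.709 over the 14866 genes. For pileup r was 0.422 and for the implied background, which is computed from the fold enrichment, 0.899. These are correlations across genes, which are not independent replicates, and whether the marks share an input library is not given in the sources used here. The part of the background in these fold enrichments was not tested. By pileup the spread was smaller: the ratio of replicates ran from 0.862 to 1.86 for H3K9cr, against 0.384 to 2.96 by fold enrichment. The highest pileup ratio for both marks was at Ndufs6, where the strongest peak of replicate 2 was the one toward Mrpl36 and that of replicate 1 was not.

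**Figure D4:**
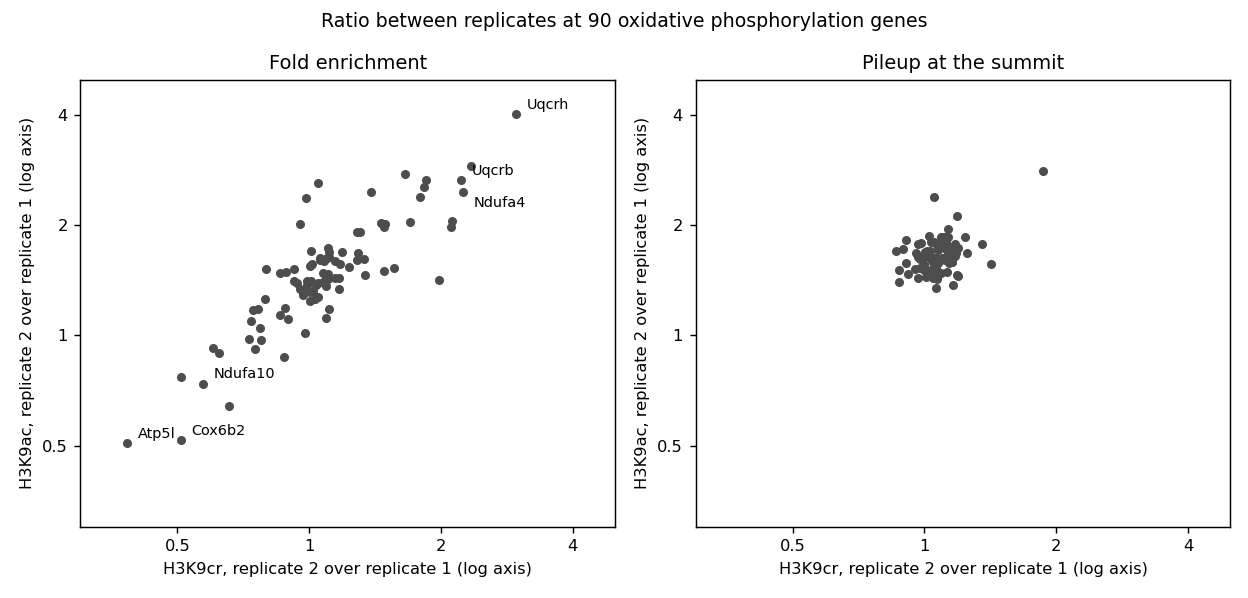
Ratio of replicate 2 to replicate 1 with H3K9cr (horizontal, log axis) and with H3K9ac (vertical, log axis) at 90 oxidative phosphorylation genes, for the fold enrichment (left) and the pileup (right) of the strongest peak. The fold enrichment ratios spread along a diagonal from Atp5l to Uqcrh, whereas the pileup ratios lie in a compact cloud, apart from Ndufs6 at 1.86 and 2.82.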

How the data were processed

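The authors deposited 1 peak list for each of the 4 precipitated libraries. The submitters' processing notes name Bowtie2 2.4.1, MACS2 2.2.7.1 and the build GRCm38, without options or the pairing with inputs. Every peak has, per the file headers, a position, a length, a summit, a pileup (the coverage signal at the summit), a −log10 p-value, a −log10 q-value and a fold enrichment (a ratio to local background). Groups and replicate numbers come from the labels, and read depth is not given, so no intervals are given.

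Genes were taken from a RefSeq table of GRCm38, and an overlap means at least 1 bp. Percentiles were computed within each list. Covered length was fitted by mark with limma 3.58.1 in R 4.3.3, with Benjamini-Hochberg adjustment over all 14110 genes at 0.05. The p-values rest on the spread between these replicates, with the variance of each gene moderated toward a value common to all tested genes. Other steps used Python 3.11.15, numpy 2.4.6, pandas 2.3.3 and matplotlib 3.10.9. The scripts were tested on simulated data.

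The members and lists were chosen with earlier results of these data known. Genes were named by a rule: members not listed in all 4 libraries, restricted paralogues and their counterparts, subunit c and catalytic subunits, the highest and lowest of each complex by mean percentile, and the 3 largest covered-length differences in each direction. An item that the rule takes is not reported here. Uqcrh, Atp5l, Ndufb10, the genes named for their neighbours, motifs or start sites and Cycs, Ppargc1a and Polrmt were chosen after their values were seen. The alternatives were peaks with −log10 q of at least 5, equal numbers of peaks, other windows and overlaps, no centring, a looser filter, a replicate block and each replicate left out.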

Additional observations from a re-analysis of the deposited data

How the results depend on the processing

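The count of members with a peak in all 4 libraries was 90 at a −log10 q of at least 5, with 26096 peaks in every library, with a 1 kb flank and with the larger part of the peak inside; it was 88 around gene ends only, where Cox5a and Cox7a2 dropped out, and 90 to 91 with each library left out in turn (91 without H3K9ac replicate 1, where Cox6a2 was added). The count with one mark alone ranged from 0 to 1 when each library was left out: it was 1, with H3K9cr alone, without H3K9cr replicate 1 (Cox8b) and without H3K9ac replicate 2 (Cox6a2), and 0 under the other settings. For covered length limma called 0 genes and 0 members under every alternative run, with smallest adjusted p-values of 0.168 to 0.916 over all genes. Unadjusted calls split differently without centring, where 882 of 927 genes and 7 of 7 members were wider with H3K9cr. With each library left out they ranged from 573 to 1268 genes and from 1 to 4 members; 825 were wider with H3K9cr and 443 with H3K9ac without H3K9ac replicate 2, and 387 and 359 without H3K9ac replicate 1. Within 1 kb of the gene end and over the whole gene span 1 member in place of 3 was below an unadjusted p of 0.05. The median difference over members was 108.5 bp without centring, -19.5 bp within 1 kb of the gene end and -22.5 bp over the whole gene span, against 12.75 bp, and -2.5 to 9 bp with each library left out; the cause of the change of sign was not tested. With the replicate number as a block, limma called 0 genes, with 809 in place of 702 at an unadjusted p under 0.05, and 5 in place of 3 members. Deviations of same-numbered libraries correlated at r = 0.139 over 14110 genes in 2 pairs, and the labels do not say that a number marks a shared batch. With 2 replicates per mark and lists cut at a threshold, small differences and weak sites cannot be seen.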
